A study of Mus musculus with 6 samples.

Results

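Actb, Gapdh, Hprt, Tbp, Ppia, Ywhaz, Pgk1 and Gusb are 8 genes that laboratories commonly use as internal references when they measure the expression of another gene. They were looked up by symbol among the 13069 genes of the deposited table of mouse glioblastoma (GBM) neurosphere cultures. All 8 were found, and all 8 were among the 12201 genes tested, those whose log2 RPKM reached 0 in 3 or more of the libraries. RPKM is the number of reads scaled to the length of the gene and the size of the library. The question was which of the 8 stay level between 3 libraries of the line C54B, labelled ATRX knockout (ATRX KO), and 3 of the line C39E, labelled ATRX wild type (ATRX WT).

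Tumours of both groups were started in the ventricles of newborn mice with Sleeping Beauty plasmids for a short hairpin against p53 and for NRAS overexpression. A further plasmid with a short hairpin against ATRX was given or withheld, while the labels call the same cultures a knockout, so the kind of loss is stated in 2 ways. The mice were C57BL/6 or FVB, and the labels do not say which strain gave which line. The medium of both lines was one for neural stem cells, supplemented with FGF, EGF, B-27 and N-2. Since 1 line stands for each genotype, the effects of genotype and of line cannot be told apart. For the same reason p-values measure only how far libraries of 1 line spread, which may be technical.

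ATRX KO libraries held 22177228 to 32477269 reads, and ATRX WT libraries held 34966108 to 38039847. Of these reads the 8 genes took 0.324% to 0.347% in ATRX KO libraries, against 0.342% to 0.384% in ATRX WT libraries. The libraries differ in more than Atrx: 10925 of the 12201 genes tested (89.5%) passed limma's test at an adjusted p of 0.05, with 43.6% higher and 45.9% lower in ATRX KO. Most markers of the labelled cell type were lower in ATRX KO than in ATRX WT, though both groups carry the same label. Of the 12 neural stem and glioma markers looked for, 11 were in the table, with a summed level of 1185 to 1205 RPKM in ATRX KO libraries, against 5120 to 5238 RPKM in ATRX WT libraries. Vim, at a mean of 1008 RPKM, made up most of the ATRX KO sum. The mean was lower in ATRX KO for 10 of the 11, and Olig2 had 2 reads over the ATRX KO libraries and 24851 over the ATRX WT libraries. The exception was Cd44, at 99.4 RPKM in ATRX KO and 23.7 RPKM in ATRX WT. The 8 fibroblast and mesenchymal markers summed to 1201 to 1375 RPKM in ATRX KO libraries, against 2.01 to 2.10 RPKM in ATRX WT libraries. The mean was higher in ATRX KO for all of them but Thy1, at 0.656 RPKM in ATRX KO and 1.12 RPKM in ATRX WT, and no test is given, since those that passed the filter did so through ATRX KO. Of the 5 endothelial markers 3 were in the table, at a sum of 14.5 to 16.5 RPKM in ATRX KO libraries, against 0.491 to 0.748 RPKM in ATRX WT libraries. The mean was higher in ATRX KO for all of these but Kdr, at 0.253 RPKM in ATRX KO and 0.304 RPKM in ATRX WT. Of the 6 immune markers only Cd68 was in the table, at 25.8 to 30.8 RPKM in ATRX KO libraries, against 5.52 to 6.28 RPKM in ATRX WT libraries. The part of these markers in the results on the 8 genes was not tested. In bulk RNA, fewer cells of a type and less RNA per cell cannot be told apart.

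A reference gene serves as a ruler in quantitative PCR or on a blot: the gene of interest is divided by it, so any change of the ruler passes into the result with its sign turned. The genes in common use were picked because most cells need their products, and they come from unrelated processes. Such need does not fix the amount of an mRNA, and for this reason several references from different processes are usually tested in the very cells under study.

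Most of these genes have left processed copies elsewhere in the genome, which matters for short reads and for primers. With windows of 42 bases, the read length of the libraries, 83.2% of the windows of the Gapdh transcript (1147 of 1379) also occur in annotated transcripts of other genes, 264 genes in all, of which 258 are pseudogenes. For Pgk1 the share was 68.1%, with 5 pseudogenes, for Ppia 40.9%, with 36 pseudogenes among 38 genes, for Actb 21.9%, with 14 among 19, and for Ywhaz 20.3%, with 3 of 3. Hprt, Tbp and Gusb shared 0 windows. The Ppia transcript used has 1170 bases, while the gene length behind the deposited values is 736. Its share over the bases that were counted may therefore differ. Within the coding sequence, every window that lies in a single exon of Gapdh (771), Pgk1 (803) and Ppia (297) occurs in another gene, as do 493 of 530 for Ywhaz and 234 of 920 for Actb, against 0 of 322 for Hprt, 0 of 661 for Tbp and 0 of 1452 for Gusb. The windows below, from the GENCODE M21 transcripts on GRCm38 and written 5′ to 3′ on the gene's strand, are shown to let this be seen. The first 3 are coding windows that another annotated gene holds letter for letter.
Gapdh: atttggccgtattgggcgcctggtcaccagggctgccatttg
Pgk1: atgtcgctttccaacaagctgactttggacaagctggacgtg
Ppia: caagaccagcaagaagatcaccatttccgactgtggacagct
The Gapdh window lies at chr6:125163395-125163436 on the minus strand and is found in 10 other genes. The Pgk1 window, at chrX:106187251-106187292 on the plus strand, is also in the pseudogene Gm5537, and the Ppia window, at chr11:6419565-6419606 on the plus strand, is also in Gm6061. In the next 2 windows the capital marks the base that sets the gene apart from its nearest copy, Gm4202 for Ywhaz and Lrrc58, a coding gene whose annotated transcript holds a stretch like Actb, for Actb.
Ywhaz: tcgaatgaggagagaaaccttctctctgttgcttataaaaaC
Actb: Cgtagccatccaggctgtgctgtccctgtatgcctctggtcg
These lie at chr15:36790828-36790869 and chr5:142904706-142904747, both on the minus strand. The last 3 are windows of the genes that share none.
Hprt: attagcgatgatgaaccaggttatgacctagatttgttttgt
Tbp: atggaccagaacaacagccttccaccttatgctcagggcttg
Gusb: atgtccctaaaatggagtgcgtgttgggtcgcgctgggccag
They lie at chrX:52999091-52999132 on the plus strand, chr17:15503075-15503116 on the plus strand and chr5:130002775-130002816 on the minus strand. How the authors counted reads that match several genes is not given in the sources used here, so the values of Gapdh, Pgk1, Ppia, Ywhaz and Actb may leave out or take in reads of such copies. Only 1 of the genes that share windows with Gapdh is in the table, Peli2, with 3386 reads over the 6 libraries against 100105 for Gapdh. For Actb the sharing gene with the most reads is Actg1, the other cytoplasmic actin, with 82783 reads against 399803. For Ppia the only sharing gene in the table is Gclm, with 14529 reads against 59196.

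**Figure D1:**
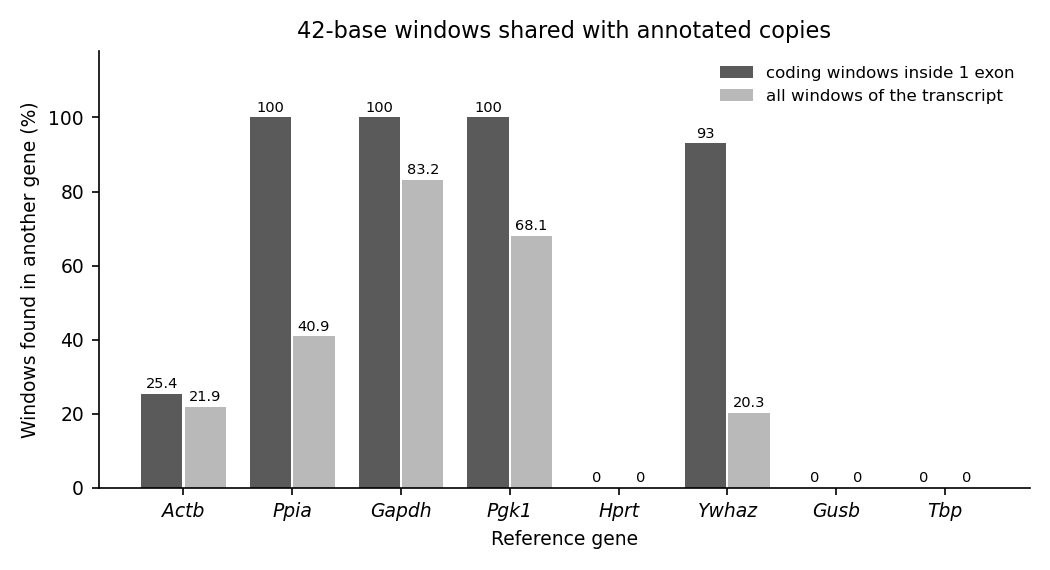
Percent of 42-base windows of each reference gene that also occur in transcripts of other annotated genes, for the whole transcript and for coding windows within 1 exon. Gapdh, Pgk1 and Ppia reach 100% in the coding sequence, and Hprt, Tbp and Gusb are at 0.

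The 8 genes span a wide range of levels, and their order differs between the groups. In ATRX KO, mean RPKM ran from Actb through Gapdh, Ppia, Hprt, Pgk1, Ywhaz and Gusb down to Tbp. In ATRX WT the order was Actb, Ppia, Gapdh, Pgk1, Hprt, Ywhaz, Tbp and Gusb. Neighbours in these orders had separate ranges over libraries, apart from Hprt and Ywhaz in ATRX WT, whose ranges overlapped. Gapdh and Ppia changed places, as did Hprt and Pgk1, and Gusb stood above Tbp in ATRX KO and below it in ATRX WT. These levels are per length, on the RPKM scale.

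**Figure D2:**
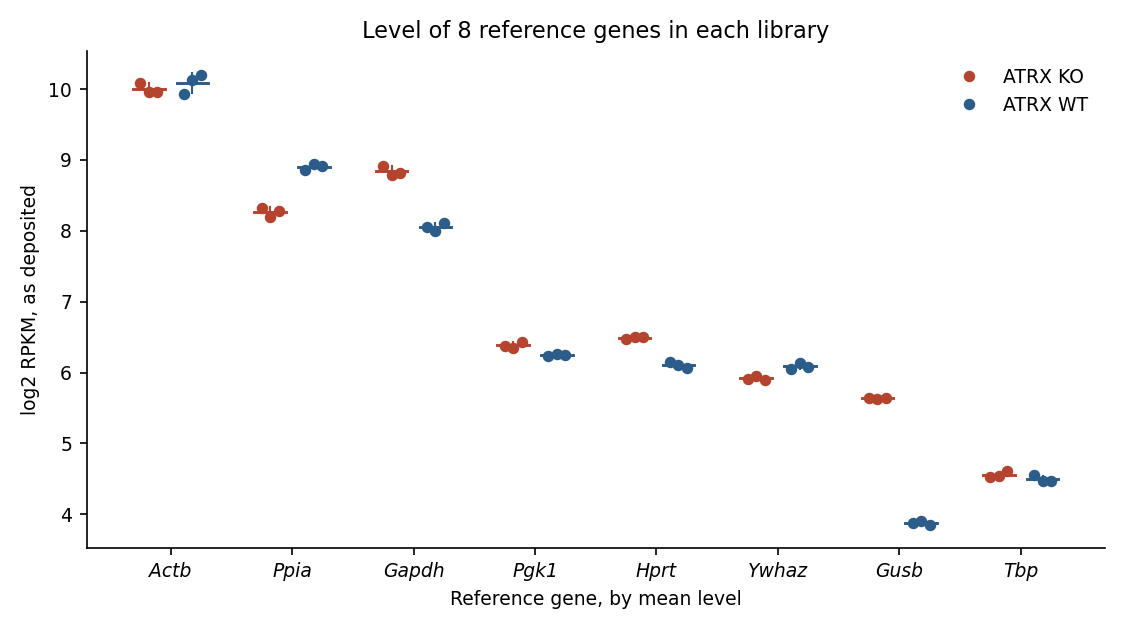
Level of the 8 reference genes in each library, in RPKM on a log scale, ATRX KO left of ATRX WT (3 libraries each; points are libraries, the horizontal line the mean and the vertical line the SD). Gusb, Gapdh and Ppia stand clearly apart between the groups, and the points of Actb and Tbp overlap.

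Of the 8 genes, 4 rose in ATRX KO (Gapdh, Hprt, Pgk1 and Gusb), 2 fell (Ppia and Ywhaz) and 2 did not pass the test (Actb and Tbp). The 6 calls are 75% of the members, beside 89.5% of all genes tested. The ranges over libraries were separate for the same 6 genes, beside 90.5% of all genes. The median log2 difference of the 8 was 0.10 and the median of its absolute size 0.28, beside -0.02 and 0.68 over all genes tested. Since a p above the threshold does not show that a gene is level, a second rule was used: a gene was called level when the 95% interval of its log2 difference lay wholly inside ±0.5, or, more strictly, inside ±0.25. These intervals are not adjusted over genes, and the shares of all genes given beside them are not matched to the level of the members. Inside ±0.5 were 5 members (Actb, Hprt, Tbp, Ywhaz and Pgk1), 62.5% of them, beside 32% of all genes tested. Inside ±0.25 were 4 (Actb, Tbp, Ywhaz and Pgk1), 50% of them, beside 12.5% of all genes. That count of 4 is not stable: it was 2 to 3 with any 1 library left out, since Actb or Ywhaz or both then missed the margin. It was 2 without ATRX WT replicate 1, and 2 when libraries were scaled by the reads in the table. With that scaling 3 of the 8 genes were called higher and 4 lower, and the median log2 difference over all genes was -0.22.

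**Figure D3:**
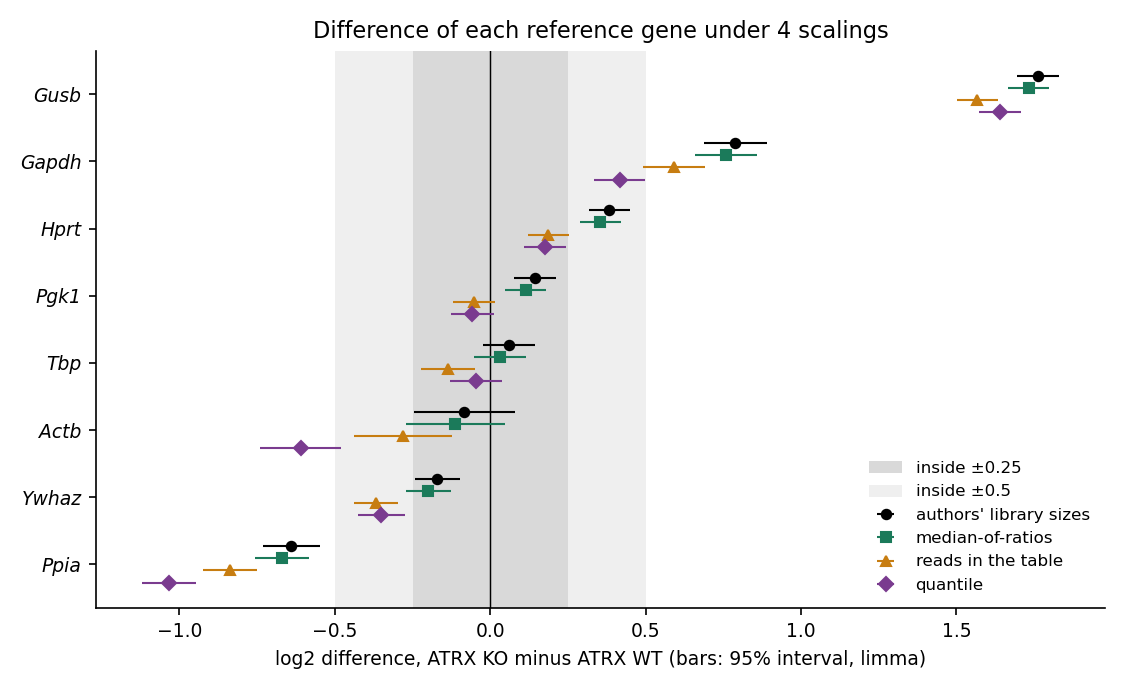
Log2 difference, ATRX KO minus ATRX WT, of the 8 reference genes with its 95% interval from limma (n = 3 libraries each) and the margins at ±0.25 and ±0.5. Each gene is shown on the authors' scaling, median-of-ratios scaling, scaling by reads in the table and quantile normalization. On the authors' scaling Actb, Tbp, Ywhaz and Pgk1 lie inside the inner margin, Hprt inside the outer one, and Ppia, Gapdh and Gusb outside both. Tbp and Pgk1 stay inside the inner margin on every scaling shown, and Ywhaz does so only on the authors'. After quantile normalization the interval of Actb (-0.74 to -0.48) crosses the outer margin, and that of Gapdh (0.33 to 0.497) lies inside it.

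Tbp encodes the TATA-binding protein, the subunit of TFIID that seats the transcription machinery on promoters. It had 23.1, 23.3 and 24.3 RPKM in the ATRX KO libraries, against 23.5, 22.2 and 22.2 RPKM in the ATRX WT libraries. The groups overlap, and all 6 values lie close together. The log2 difference was 0.06 (SE 0.036, 95% interval -0.02 to 0.14, adjusted p = 0.14 by limma), and 5.70% of genes tested had a smaller one. Tbp was level within ±0.25 under all 15 alternatives tried, with differences of -0.14 to 0.09 and adjusted p from 0.0074 to 0.44. It was called lower in 1 of them, at -0.14 with libraries scaled by reads in the table (adjusted p = 0.0074 by limma). Its spread between libraries, a pooled SD of 0.0433 on the log2 scale, was close to the 0.0399 that counting reads alone gives.

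Pgk1 encodes phosphoglycerate kinase, one of the ATP-forming steps of glycolysis. Its level was 83.3, 81.4 and 86.5 RPKM in the ATRX KO libraries, against 74.9, 76.7 and 75.7 RPKM in the ATRX WT libraries. All ATRX KO values are above all ATRX WT values, though by little. The log2 difference of 0.14 (SE 0.030, 95% interval 0.08 to 0.21, adjusted p = 0.0015 by limma) made it both a called rise and level within ±0.25. It too was level within ±0.25 under all 15 alternatives. The direction is less firm than the level, because it was -0.05 with libraries scaled by reads in the table and -0.06 after quantile normalization, and neither passed the test.

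Ywhaz encodes the zeta form of the 14-3-3 proteins, adaptors that bind phosphorylated partners. It had 60.03, 62.0 and 59.3 RPKM in the ATRX KO libraries, against 66.3, 70.2 and 67.5 RPKM in the ATRX WT libraries. The ranges are separate, with ATRX KO at 88.9% of ATRX WT. The log2 difference was -0.17 (SE 0.031, 95% interval -0.24 to -0.10, adjusted p = 0.00076 by limma). The interval ends next to the strict margin, and Ywhaz was level within ±0.25 in 8 of the 15 alternatives and within ±0.5 in all 15.

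Actb, the cytoplasmic beta-actin of the cell's filaments, was the most abundant of the 8, with 1092, 998 and 994 RPKM in the ATRX KO libraries, against 979, 1124 and 1171 RPKM in the ATRX WT libraries. The lowest and the highest value both belong to ATRX WT, so the groups overlap fully. The log2 difference was -0.08 (SE 0.070, 95% interval -0.24 to 0.08, adjusted p = 0.29 by limma). Its mean was thus nearly as close between groups as that of Tbp, but its libraries were far less alike. The pooled SD was 0.11 on the log2 scale, the largest of the 8, while counting reads alone gives 0.0058. Actb was level within ±0.25 in 6 of the 15 alternatives. It was called lower in 3 of them: at -0.28 when libraries were scaled by reads in the table (adjusted p = 0.0040), at -0.61 after quantile normalization (adjusted p = 4.5e-06) and at -0.16 without ATRX WT replicate 1 (adjusted p = 0.039, all by limma). Over the 15 its adjusted p ran from 4.5e-06 to 0.72.

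Hprt, the salvage enzyme that recycles hypoxanthine and guanine into nucleotides, had 88.7, 90.3 and 90.6 RPKM in the ATRX KO libraries, against 70.7, 69.1 and 66.9 RPKM in the ATRX WT libraries. Every ATRX KO library is above every ATRX WT library. The log2 difference was 0.38 (SE 0.028, 95% interval 0.32 to 0.45, adjusted p = 1.5e-06 by limma), so ATRX KO stood at 130% of ATRX WT. It was level within ±0.5 under all 15 alternatives, with differences of 0.18 to 0.40.

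Ppia encodes cyclophilin A, a prolyl isomerase of the cytosol. It had 320, 294 and 311 RPKM in the ATRX KO libraries, against 466, 493 and 482 RPKM in the ATRX WT libraries. The groups are far apart relative to their spread. The log2 difference was -0.64 (SE 0.039, 95% interval -0.73 to -0.55, adjusted p = 3.9e-07 by limma), with ATRX KO at 64.2% of ATRX WT. This was the strongest fall of the 8, and it lay between -1.03 and -0.61 over the alternatives.

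Gapdh, the glycolytic dehydrogenase ahead of Pgk1 in the pathway, had 485, 442 and 452 RPKM in the ATRX KO libraries, against 265, 256 and 277 RPKM in the ATRX WT libraries. The ranges are well separated. ATRX KO was 1.73-fold higher, a log2 difference of 0.79 (SE 0.044, 95% interval 0.69 to 0.89, adjusted p = 1.9e-07 by limma). More genes than not moved less, since 55.4% of those tested had a smaller absolute difference. The rise was called in all 15 alternatives, at 0.42 to 0.82, and the interval lay inside ±0.5 in 1 of them.

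Gusb encodes beta-glucuronidase, a lysosomal hydrolase that trims glycosaminoglycans. It had 50.1, 49.5 and 50.1 RPKM in the ATRX KO libraries, against 14.7, 15.0 and 14.4 RPKM in the ATRX WT libraries, from 9452 and 4245 reads in all. Within each group the libraries are nearly the same, and between groups they are the most distant of the 8. ATRX KO was 3.39-fold higher, a log2 difference of 1.76 (SE 0.029, 95% interval 1.70 to 1.83, adjusted p = 9.3e-11 by limma). Of all genes tested, 78.1% had a smaller absolute difference, and of the 2179 genes within 0.5 of its own mean log2 level, 92.2% did. The pooled SD over libraries was 0.0237 on the log2 scale, below the 0.0328 that counting gives. A steady value within a group therefore went with the largest difference between groups.

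The scaling of a library cancels when 1 reference is divided by another in the same library, so the 28 pairs of the 8 genes were compared as log2 ratios. With 3 libraries a group the smallest p that an exact two-sided permutation test can give is 0.1. In 25 pairs (89.3%) the ATRX KO and ATRX WT ratios did not overlap and reached that p, beside 92% of all pairs of tested genes. The pairs that overlapped were Actb over Ywhaz, with a difference of 0.09 (exact permutation p = 0.4), Actb over Tbp, with -0.14 (exact permutation p = 0.3), and Actb over Pgk1, with -0.23 (exact permutation p = 0.2). The smallest difference belonged to Tbp over Pgk1, whose log2 ratio averaged -1.83 in ATRX KO, against -1.74 in ATRX WT, a change of -0.08. In all, 6 pairs (21.4%) changed by less than 0.25, beside 11.8% of all pairs of tested genes. These 6 were the pairs above together with Tbp over Ywhaz (0.23) and Hprt over Pgk1 (0.24). The largest change was -2.40, for Ppia over Gusb. Gapdh over Ppia changed by 1.43 and Actb over Gapdh by -0.87.

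For each gene, the SD of its log2 ratio to each of the other 7 over the 6 libraries was averaged, a usual way to rank candidate references that does not use the group labels. It was lowest for Pgk1 (0.316) and Tbp (0.324), followed by Hprt (0.352), Actb (0.360) and Ywhaz (0.370). Gapdh (0.477), Ppia (0.581) and Gusb (0.930) came last. An SD over all 6 libraries takes in the difference between groups, so this rank is not separate from the differences above. Within ATRX KO alone the average was lowest for Gusb (0.047) and highest for Actb (0.076). Within ATRX WT alone it was lowest for Pgk1 (0.054) and highest for Actb (0.140). The mean log2 level of all 8 was 7.03, 6.99 and 7.02 in the ATRX KO libraries, against 6.71, 6.75 and 6.74 in the ATRX WT libraries. The mean of the 8 thus differed by 0.28, or 1.21-fold, on the authors' scaling. Gusb, at 1.76, weighs most in this, and the median of the 8 differences was 0.10.

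**Figure D4:**
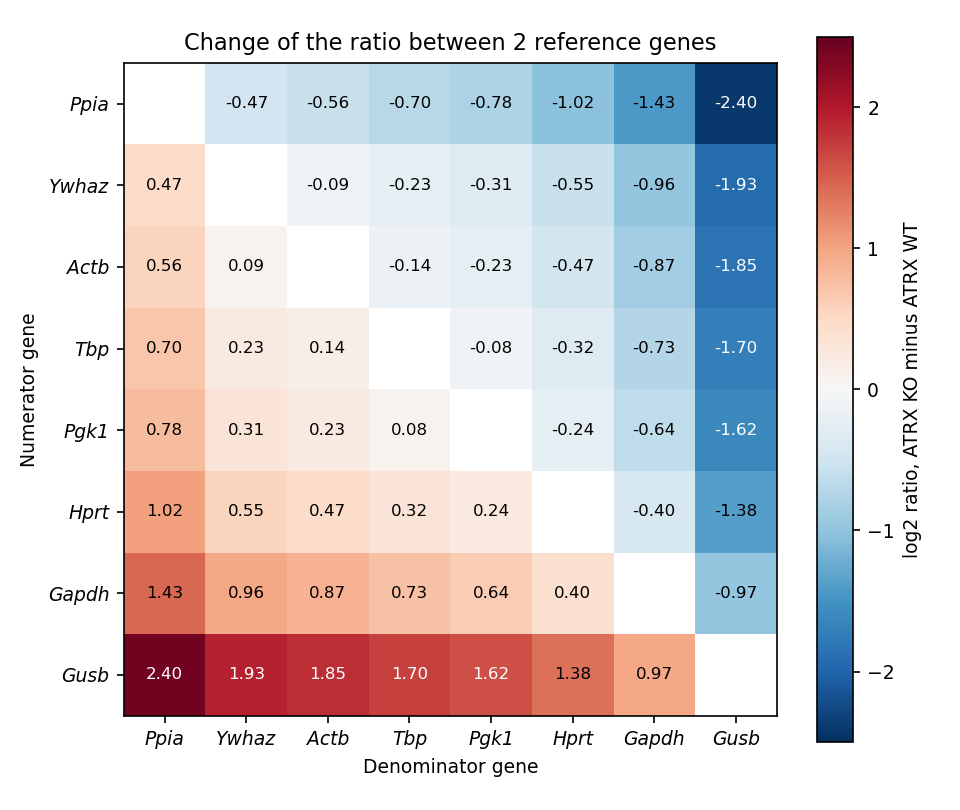
Difference of the log2 ratio between each pair of reference genes, ATRX KO minus ATRX WT (n = 3 libraries each), for the 28 pairs. Differences run from 0.08 in size between Tbp and Pgk1 to 2.40 between Ppia and Gusb, and among Actb, Tbp, Ywhaz and Pgk1 the largest is 0.31, for Ywhaz and Pgk1.

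What this does to a readout was seen with Atrx, the targeted chromatin remodeller, and Chek1, a checkpoint kinase of the cell cycle process that the series title names. On the authors' scaling Atrx fell in ATRX KO, to 71.7% of ATRX WT (log2 difference -0.48, SE 0.068, adjusted p = 0.00013 by limma). Its mean log2 RPKM was 3.99 for ATRX KO and 4.47 for ATRX WT, so reads of the gene remained in the cultures labelled knockout. Divided by Tbp within each library it stood at 68.8%, by Pgk1 at 64.9%, by Ywhaz at 80.7% and by Actb at 76.0% of ATRX WT. Divided by Hprt it was 55.0%, by Gapdh 41.5% and by Gusb 21.1%. Relative to Ppia the sign turned, with ATRX KO at 112% of ATRX WT, overlapping groups and an exact permutation p of 0.4. With each of the other 7 references ATRX KO was lower and the groups did not overlap (exact permutation p = 0.1, the smallest possible).

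The Chek1 values share their libraries and references with those of Atrx. Chek1 fell in ATRX KO to 63.3% of ATRX WT on the authors' scaling (log2 difference -0.66, SE 0.048, adjusted p = 1.2e-06 by limma). It stood at 60.7% relative to Tbp, 57.3% relative to Pgk1, 71.3% relative to Ywhaz and 67.1% relative to Actb. The values were 48.6% relative to Hprt, 36.7% relative to Gapdh and 18.7% relative to Gusb. Relative to Ppia it was 98.7%, with overlapping groups and an exact permutation p of 0.9, and with each of the other 7 references ATRX KO was lower without overlap (exact permutation p = 0.1). With the mean of all 8 as reference, in which Gusb weighs most, Atrx was at 59.0% and Chek1 at 52.1% of ATRX WT.

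**Figure D5:**
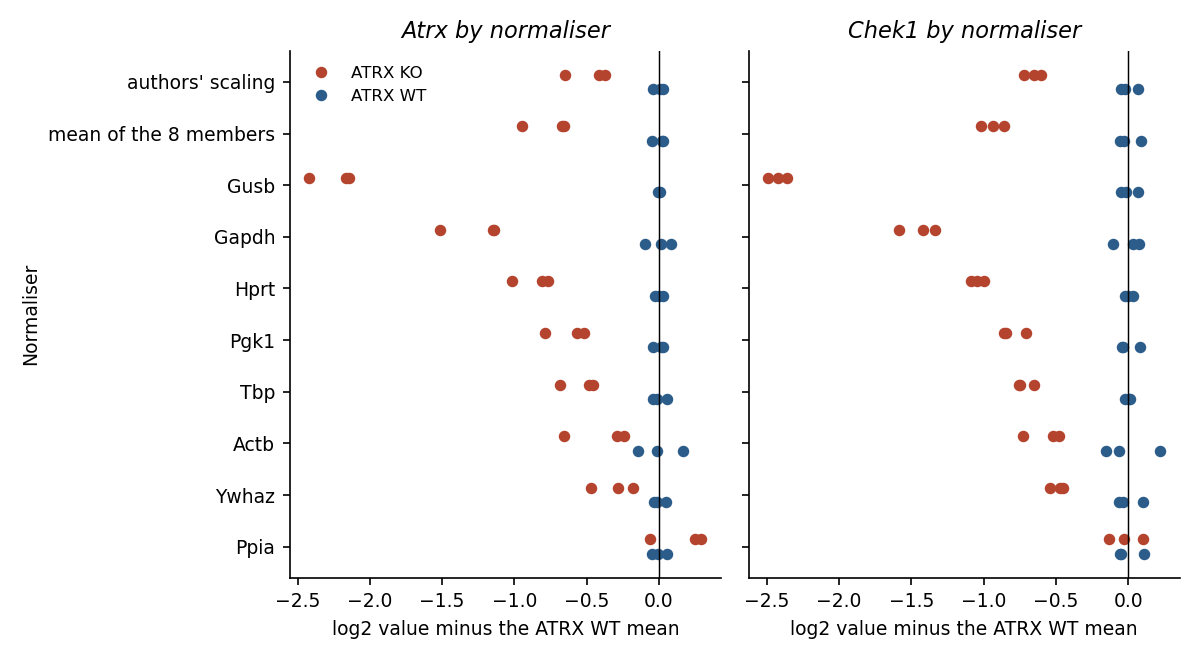
Level of Atrx and Chek1 in ATRX KO relative to ATRX WT on a log2 scale, on the authors' scaling and divided by each reference gene or by the mean of the 8 within each library (n = 3 libraries each). The values run from 18.7% for Chek1 over Gusb to 112% for Atrx over Ppia.

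The processes the 8 genes belong to were mixed in direction, each list given without its reference genes. Of 14 glycolysis genes tested, 7 rose, 6 fell and 1 did not pass, with a median of 0.23. Level within ±0.25 were 2 of them, beside 12.5% of all genes tested. They ran from Eno2, a neuronal enolase, at a difference of about 0 (log2 -9.2e-06) to the phosphofructokinase Pfkp at 2.17. Of 16 purine metabolism genes, 8 rose, 6 fell and 2 did not pass, with a median of 0.11. They included Prps1 (0.06) and the xanthine dehydrogenase gene Xdh (3.92). Xdh is counted among the rises, but passed the filter through ATRX KO alone, at 0.682 RPKM in ATRX WT. Of 19 TFIID and TBP-related genes, 6 rose, 10 fell and 3 did not pass, with a median of -0.17. Among them the TBP-like factor Tbpl1 had the largest difference, 1.23, and Tbp itself the smallest of the full list. In all these counts the share called is to be read beside the 89.5% of all genes.

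Of 15 genes of actin and its turnover, 5 rose, 7 fell and 3 did not pass, with a median of -0.09. The rises include Acta2, which passed the filter through ATRX KO alone, at 0.811 RPKM in ATRX WT. Arpc2, a subunit of the Arp2/3 complex, was at 0.01, the severing protein gene Gsn was at 3.84, and Actg1 fell by 0.95. Of 15 prolyl isomerases other than Ppia, 6 rose, 6 fell and 3 did not pass, with a median of 0.06, from Fkbp5 (0.02) to the mitochondrial cyclophilin gene Ppif (1.49). Of the 6 other 14-3-3 genes, 2 rose, 3 fell and 1 did not pass, with Ywhaq at 0.06. Sfn, the 14-3-3 gene that differed most, had 185 reads over the ATRX KO libraries and 1 over the ATRX WT libraries. It is counted among the rises, but passed the filter through ATRX KO alone. Of 17 genes of lysosomal glycan breakdown other than Gusb, 8 rose, 6 fell and 3 did not pass, with a median of 0.02. They ran from the arylsulfatase gene Arsb (-0.01) to the acetyltransferase gene Hgsnat (2.27). Gusb, at 1.76, lies between that median and Hgsnat. For these lists too the share called is to be read beside the 89.5% of all genes.

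A further 38 genes that are also used as references were tested for comparison. Of these, 20 rose, 12 fell and 6 did not pass the test, so 84.2% were called, beside 89.5% of all genes. Level within ±0.5 were 21 (55.3%), beside 32% of all genes, and level within ±0.25 were 8 (21.1%), beside 12.5%. G6pdx, which opens the pentose phosphate pathway, had the smallest difference (log2 -0.0013), and Tuba1a, an alpha-tubulin of neural cells, the largest (log2 -3.47). Level within ±0.25 on the authors' scaling and in each of the 15 alternatives were 330 of the 12201 genes (2.7%). Among the 8 genes this held for Tbp and Pgk1, and among the 38 for Alas1 (0.05), which starts heme synthesis, Chmp2a (0.09), part of the ESCRT machinery, and Vcp (0.13), a protein-unfolding ATPase. The scaling by reads in the table lowers all differences alike, with the median over all genes at -0.22, so this count favours genes slightly above 0.

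The genes whose pattern over the 6 libraries was most like each reference were found by the root mean square difference of log2 values, each centred on its own mean, among 7264 genes whose mean log2 RPKM reached 3. Nearest to Tbp were Ergic2 (0.0164), Sdhaf2 and Zcrb1, and nearest to Pgk1 were Xrn2 (0.0173), Rap2b and Bre. For Hprt they were Cdk7 (0.0153), Csnk1g3 and Rap1gds1, for Ywhaz Ankrd17 (0.0170), Spats2 and Ube2v1, and for Gusb Cmtm3 (0.0104), Ghitm and Mcu. For Ppia they were Sema3f (0.0144), Soga1 and Ccnb1, and for Gapdh Rpusd4 (0.0196), Sympk and Rplp0, itself a common reference. No gene came as near to Actb, whose closest were Idh3g (0.0522), Pcbp3 and Dvl3.

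The 8 genes lie on 6 chromosomes of GRCm38, as annotated in GENCODE M21. Actb, at chr5:142903115-142906754, had 59 neighbours within 5 Mb whose mean log2 RPKM reached 3, and their median log2 difference was 0.14. Gusb, at chr5:129989011-130003049, had 28 with a median of 0.12, far from its own 1.76. The 44 neighbours of Gapdh (chr6:125161715-125166467) had a median of -0.07, and the 49 of Ppia (chr11:6415443-6419817) a median of -0.00. Tbp (chr17:15499888-15528379) stood among 16 neighbours with a median of 0.05, and Ywhaz (chr15:36770770-36796929) among 22 with 0.24. Hprt (chrX:52988137-53021659) and Pgk1 (chrX:106187100-106203699) are X-linked, with neighbour medians of -0.33 over 12 genes and -0.20 over 19, and the 201 X-linked genes at that level had a median of -0.16. On the authors' scaling Hprt and Pgk1 were higher in ATRX KO while the median of the genes around them was lower. Pgk1 (0.14) still lay between the quartiles of its neighbours (-0.52 and 0.36), and Hprt (0.38) lay above those of its own (-0.66 and 0.17). Over all 7021 placed genes at that level the median was 0.08.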

How the data were processed

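Total RNA (4 ug) from 3 ATRX KO and 3 ATRX WT cultures was made into stranded mRNA libraries and read as paired-end 42-nt reads, per the labels' protocols. The authors deposited log2 RPKM values for 13069 genes. STAR 2.5.3a, HTSeq 0.11.2, edgeR 3.20.9, Trim Galore and FastQC are named, per the submitters' processing notes, as are builds mm9 and mm10, without a role. How reads matching several genes were counted is not given in the sources used here.

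Whole reads, gene lengths and library sizes were recovered from the steps of the deposited values for 100% of genes (tolerance 0.0001 reads). The authors' library sizes were 0.932 to 0.935 of the reads in the table for ATRX KO, and 1.07 for ATRX WT. A scaling by reads in the table alone moves the median log2 difference over all genes to -0.22, from -0.02. Differences are therefore on the authors' scaling unless stated.

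Genes that reached log2 RPKM 0 in 3 or more libraries (12201, with 868 left out) entered a fit by limma (version 3.58.1, R 4.3.3; empirical Bayes with trend, degrees of freedom 4 residual and 4.18 prior, two-sided, Benjamini-Hochberg over all genes tested, threshold 0.05). "Rose" and "fell" mean an adjusted p under it. Means and SDs are over 3 libraries a group. Each SE is limma's SE of the log2 difference, which also draws on the spread of the other genes tested. RPKM is 2 to the power of the deposited value and so holds the authors' prior count, 2 reads on average. Ratios within a library were tested with exact permutation. The limma fit was tested on simulated data, with an outcome not given here. Far fewer genes changed there than the 89.5% called in these libraries, so that test does not cover such a setting. The 15 alternatives changed the scaling (reads in the table, median of ratios, quantile), filter, pseudocount, trend, weights (voom on recovered reads) or replicate block, or left out 1 library. Pair shares are over all pairs of tested genes, and window shares, sequences and positions come from GENCODE M21 (GRCm38). Symbols gave 1 position for 12598 genes, more than 1 for 22 and none for 449.

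The members and lists were chosen with earlier results of these data known. Genes named beyond the members were the smallest and largest absolute difference of each list and the 3 nearest patterns. Others were named after their values were seen: Actg1, Acta2, Olig2, Cd44, Vim, Thy1, Kdr and Cd68. So were the genes that share windows, the reference genes level in every alternative and the reference genes of the closing section. Libraries of a genotype differed by more than sampling noise, with a chi-square per gene of 2.28 to 7.26 in ATRX KO, where replicate 1 stood furthest off, and 1.93 to 2.93 in ATRX WT.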

Additional observations from a re-analysis of the deposited data

How the results depend on the processing

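Of the values of single reference genes, 113 of 120 kept their direction and side of the threshold over the 15 alternatives, 4 reversed and 3 newly passed. Reversed were Tbp (-0.14, adjusted p = 0.0074) and Pgk1 (-0.053) with libraries scaled by reads in the table, and Tbp (-0.045) and Pgk1 (-0.057) after quantile normalization. With that first scaling 4388 genes were higher and 6689 lower in ATRX KO, and of the 8 genes 3 were higher and 4 lower. The count level within ±0.25 was 2 with libraries scaled by reads in the table, with median-of-ratios scaling and without the mean-variance trend, against 4. The spread of the 8 differences (SD 0.729) was 0.799 after quantile normalization. With 1 library left out, the count level within ±0.25 was 2 to 3, genes called 10645 to 10947, members called 6 to 7, members level within ±0.5 5 and pairs without overlap 25 to 27. The cause of these moves was not tested.

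Deviations of same-numbered libraries had correlations of -0.05, 0.05 and -0.04, within the -0.09 to 0.12 of libraries with different numbers. Whether same-numbered libraries share a preparation cannot be told from these values. With the replicate block 10851 genes and 6 members were called, with 5 level within ±0.5 and 3 within ±0.25. The fewest reads over a group were 3339 for Tbp in ATRX KO, so counting error is largest there.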

Other observations

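Some of the 38 further reference genes moved more than most of the 8, and the ones named here were picked after their values were seen, so they show nothing about a group. For comparison, 43.6% of all genes tested were called higher in ATRX KO. The ribosomal protein gene Rps18 had a log2 difference of 1.96 (1.43 to 2.01 over the alternatives), Rpl13a one of 1.02 (0.49 to 1.05), Rpl4 one of 0.89 (0.24 to 0.90) and Rplp0 one of 0.81 (0.24 to 0.85). Eef1a1, an elongation factor gene, was at 0.58 and reached 0.00 after quantile normalization. That scaling gives genes of the same rank the same value, so this 0.00 can come from an unchanged rank alone. Rps18 shares 85.2% of its windows of 42 bases with other annotated genes, Eef1a1 65.5% and Rpl13a 57.8%, and the part of these copies in the values was not tested. Outside translation, B2m, the light chain of MHC class I, was at 1.16 (0.71 to 1.18), the transferrin receptor gene Tfrc at 1.23 (1.03 to 1.25) and the beta-tubulin gene Tubb5 at -1.11 (-1.59 to -1.08).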
